A study of Mus musculus with 20 samples.

Results

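The zinc-finger protein Bcl11b regulates transcription in T cells, and the data described here are the places on the mouse genome where it was bound in regulatory T (Treg) cells and in cells labelled Tn. The deposited comparison of the 2 cell types consists of 3 lists of genomic regions, which class a region as Treg-specific, Tn-specific or common. Members were taken as the distinct positions in these lists, after 4 regions that stood in 2 of the lists were left out. This gave 7243 regions of the 22081 in the whole series. Of these, 2025 regions (28%, Wilson 95% interval 26.9 to 29.0) were Treg-specific, 725 regions (10%, 9.34 to 10.7) were Tn-specific and 4493 regions (62%, 60.9 to 63.1) were common. Because the lists themselves assign the class, these shares are a description and carry no test.

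The measurement was chromatin immunoprecipitation followed by sequencing (ChIP-seq), in which DNA bound by a protein is recovered with an antibody and read out. Bcl11b was precipitated in 3 libraries of wild-type (WT) Treg cells and in 3 libraries of WT Tn cells, with 3 Treg and 2 Tn libraries of input DNA. Both groups are C57BL/6 with the genotype Foxp3-IRES-YFP-Cre, in which the Foxp3 locus drives a fluorescent Cre recombinase, and neither group lacks Bcl11b. Foxp3 was precipitated in 2 libraries of Bcl11b-KO Treg cells, whose genotype is Bcl11b f/f Foxp3-IRES-YFP-Cre, and in 2 libraries of WT Treg cells. The labels do not expand Tn, and they give Tn cells the same sort markers, CD4+YFP+, as Treg cells, so Tn is kept as the submitters wrote it. Cells were sorted from spleen and draining lymph nodes. Age and sex of the mice are not given in the labels. The lists hold positions only, 1 list per class, so there is no value per library and sequencing depth is unknown. Each test below therefore compares regions of these lists, not replicate cultures or animals, and its intervals cover counting error only.

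Bcl11b is needed for commitment of thymocytes to the T lineage and remains expressed in mature T cells, where it recruits chromatin-modifying complexes. Foxp3 is the transcription factor that defines Treg cells, and it binds largely at sites that other T cell factors also occupy. Binding near a transcription start is often at promoters that many cell types use, whereas cell type identity is more often encoded at distal elements. Foxp3 itself held 1 region, which was Treg-specific, inside the gene at chrX:7583933-7584227 and 3.60 kb from a start. The gene Bcl11b held a Tn-specific region at chr12:107993095-107993393 and a common region at chr12:107998719-107999043, both inside the gene. The classes were set beside the other deposited comparisons that use Treg Bcl11b, those with KIKO cells (Treg cells without Foxp3) and with WT Foxp3. These comparisons share the Treg Bcl11b group, so they are no independent check of the classes. At least 1 of them listed for Treg Bcl11b all 2025 Treg-specific regions, 53 of 725 Tn-specific regions (7.31%, 5.63 to 9.44) and 3542 of 4493 common regions (78.8%, 77.6 to 80.0). The other 951 common regions (21.2%) were listed for Treg Bcl11b in neither, so common is used as the lists' own name and not as a peak shown in both cell types. All coordinates are in mm10 and count from 1.

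Regions of the 3 classes lay in different places relative to genes. For each region outside chromosome 18, the distance from its centre to the nearest start of a protein-coding transcript was taken from the RefSeq promoter table. The table gives a start for 79.9% of protein-coding genes, so a region at the start of another gene was measured to a neighbouring one. Within 250 bp of a start lay 82 of 1966 Treg-specific regions (4.17%, 3.37 to 5.15), 133 of 709 Tn-specific regions (18.8%, 16.1 to 21.8) and 1550 of 4386 common regions (35.3%, 33.9 to 36.8). The median distance was 10.7 kb for Treg-specific regions (quartiles 4.30 and 18.3 kb), 7.87 kb for Tn-specific regions (0.520 and 17.9 kb) and 1.98 kb for common regions (0.108 and 14.4 kb). Treg-specific regions were mostly at middle distances, with 77.1% between 1 and 50 kb from a start, against 56.4% of Tn-specific and 43.1% of common regions. They lay on both sides of the start, with 20.5% between 1 and 10 kb downstream and 17.3% between 1 and 10 kb upstream.

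**Figure D1:**
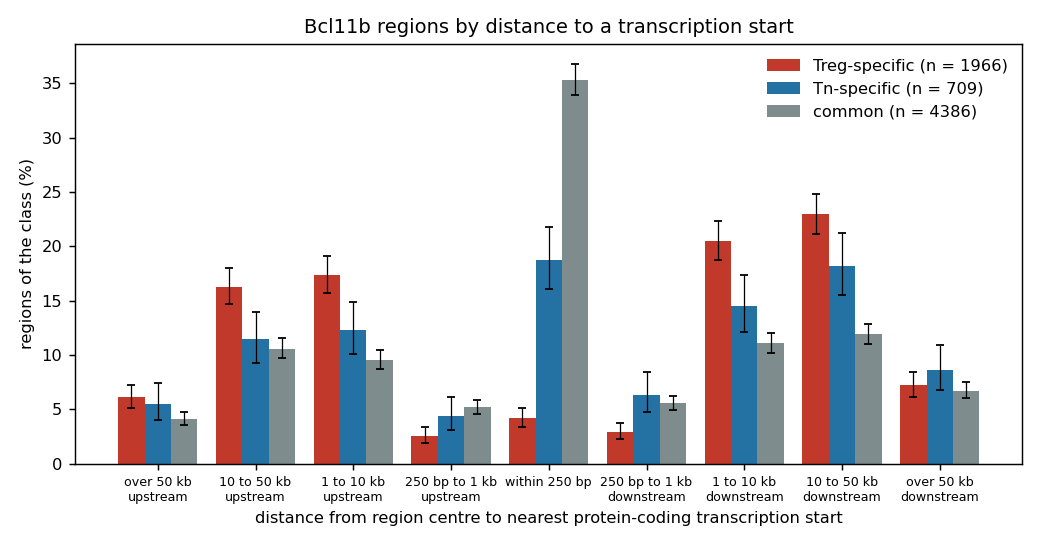
Share of the regions of each class (y axis, %) by distance and side of the nearest protein-coding transcription start (x axis), with Wilson 95% intervals as error bars. Within 250 bp the bars stand at 4.17% for Treg-specific, 18.8% for Tn-specific and 35.3% for common regions, while Treg-specific regions have the highest bars from 1 to 50 kb on either side.

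The difference in position was tested as the share of regions within 1 kb of either end of a protein-coding gene. This held for 276 of 2025 Treg-specific regions (13.6%) and 2255 of 4493 common regions (50.2%), an odds ratio of 0.157 (exact 95% interval 0.136 to 0.180; Fisher's exact test, two-sided, adjusted p = 1.8e-189 by Benjamini-Hochberg over 8 tests). Among Tn-specific regions it held for 241 of 725 (33.2%), an odds ratio of 0.494 against common regions (0.417 to 0.585; Fisher's exact test, adjusted p = 2.6e-17). Regions near the same gene are not independent, which can make such p-values smaller than they should be. Away from gene ends the classes were closer together. Of regions over 1 kb from a gene end, 61.5% of Treg-specific, 60.7% of Tn-specific and 63.5% of common regions lay inside a gene. Against common regions the odds ratio was 0.915 (0.803 to 1.04) for Treg-specific regions and 0.888 (0.722 to 1.09) for Tn-specific regions, with adjusted p = 0.3 and 0.34 by Fisher's exact test.

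The width of a region moved with both class and position. Treg-specific regions were exactly 198 bp wide in 1785 of 2025 cases (88.2%), and Tn-specific regions exactly 226 bp wide in 480 of 725 cases (66.2%). Common regions held both widths, 956 at 198 bp and 645 at 226 bp, and reached 794 bp with a median of 283 bp. Regions wider than 276 bp, the largest fixed width in the series, numbered 190 Treg-specific, 193 Tn-specific and 2345 common. Among these wide regions the odds ratio of lying at a gene end, against common regions, was 0.279 for Treg-specific (adjusted p = 1.1e-15) and 0.626 for Tn-specific regions (adjusted p = 0.009), by Fisher's exact test. Among all regions of a width other than 198 or 226 bp it was 0.357 and 0.701 (adjusted p = 4.1e-13 and 0.036, Fisher's exact test), a split made after the data were seen.

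Some specific regions did cover promoters, and their sequence can be shown. A promoter window here is the 250 bases before and 50 bases after a start. Such a window was overlapped by 90 Treg-specific regions (4.44%), 129 Tn-specific regions (17.8%) and 1606 common regions (35.7%). The sequences below are those parts of the window that the region covers, from RefSeq GRCm38.p6, read 5′ to 3′ on the strand of the gene. They are shown as the parts under the 2 widest regions of each class that cover at least 100 bases of a window and hold there the core of the ETS factor motif, CCGGAAG or its reverse complement CTTCCGG, which is in capitals.
Zpr1 (Treg-specific, chr9:46272901-46273113, + strand): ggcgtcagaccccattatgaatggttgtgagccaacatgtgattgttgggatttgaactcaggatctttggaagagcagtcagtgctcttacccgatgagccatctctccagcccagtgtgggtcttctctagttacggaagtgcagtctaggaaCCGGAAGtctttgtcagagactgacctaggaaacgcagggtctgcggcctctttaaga
Adh5 (Treg-specific, chr3:138442843-138443142, + strand): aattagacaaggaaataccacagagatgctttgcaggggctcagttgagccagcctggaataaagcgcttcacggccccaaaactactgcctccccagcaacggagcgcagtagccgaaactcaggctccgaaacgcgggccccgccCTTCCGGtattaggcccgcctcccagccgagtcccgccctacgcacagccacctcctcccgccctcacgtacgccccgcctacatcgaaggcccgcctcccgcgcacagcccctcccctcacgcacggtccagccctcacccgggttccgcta
Plcxd2 (Tn-specific, chr16:46010536-46010663, - strand): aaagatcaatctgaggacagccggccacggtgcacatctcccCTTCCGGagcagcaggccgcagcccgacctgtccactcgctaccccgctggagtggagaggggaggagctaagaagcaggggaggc
Zbtb9 (Tn-specific, chr17:26972929-26973228, + strand): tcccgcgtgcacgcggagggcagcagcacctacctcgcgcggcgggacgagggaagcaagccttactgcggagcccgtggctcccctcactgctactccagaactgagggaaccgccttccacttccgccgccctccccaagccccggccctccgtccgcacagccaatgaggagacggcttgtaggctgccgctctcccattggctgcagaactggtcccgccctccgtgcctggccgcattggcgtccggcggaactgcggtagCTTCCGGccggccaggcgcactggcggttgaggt
Dph5 (common, chr3:115887933-115888232, + strand): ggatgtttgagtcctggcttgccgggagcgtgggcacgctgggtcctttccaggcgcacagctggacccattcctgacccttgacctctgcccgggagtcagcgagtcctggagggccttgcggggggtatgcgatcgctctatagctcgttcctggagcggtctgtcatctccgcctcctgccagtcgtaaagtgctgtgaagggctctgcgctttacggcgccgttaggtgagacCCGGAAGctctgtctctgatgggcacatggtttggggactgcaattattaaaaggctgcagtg
Vdac1 (common, chr11:52360601-52360900, + strand): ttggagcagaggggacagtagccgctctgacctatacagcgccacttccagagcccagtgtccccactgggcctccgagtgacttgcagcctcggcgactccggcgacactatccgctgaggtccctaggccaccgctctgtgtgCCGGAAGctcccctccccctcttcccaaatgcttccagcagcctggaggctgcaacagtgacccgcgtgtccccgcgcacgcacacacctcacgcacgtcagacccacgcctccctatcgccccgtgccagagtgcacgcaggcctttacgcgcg
Zpr1 encodes a zinc-finger protein, Adh5 the enzyme that clears formaldehyde bound to glutathione, and Dph5 an enzyme of diphthamide synthesis. Vdac1 encodes the main channel of the outer mitochondrial membrane and Zbtb9 a BTB zinc-finger protein. The covered stretches ranged in GC content from 50.7% in Zpr1 to 69.67% in Zbtb9.

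Promoters under each of the 3 classes were more often CpG-rich than all promoters. A CpG-rich window, with a ratio of observed to expected CpG of at least 0.6, made up 78.5% of 107 windows under Treg-specific regions, 87.1% of 147 under Tn-specific and 88.6% of 1951 under common regions, against 47.7% of all 21263 windows. The ETS core was present in 32.7%, 29.9% and 34.8% of the windows under Treg-specific, Tn-specific and common regions, against 19.8% of CpG-rich windows and 11.6% of all windows. Both strands were searched. The core of the cyclic AMP response element, TGACGT, was present in 22.4% (15.6 to 31.2), 21.8% (15.9 to 29.1) and 17.2% (15.6 to 18.9) of windows in the same order, against 13.1% of CpG-rich windows and 8.49% of all windows. The RUNX core TGTGGT was present in 20.6% (14.0 to 29.2) and 18.4% (12.9 to 25.4) of windows under Treg-specific and Tn-specific regions, and in 11.8% (10.4 to 13.3) under common regions, against 9.33% of CpG-rich windows and 14.97% of all windows. The share of all windows lies inside the intervals of both specific classes. CCAAT, the box bound by NF-Y, was present in 23.4%, 35.4% and 32.5%, against 36.5% of CpG-rich windows and 38.2% of all windows. The GC box GGGGCGGGG was present in 18.7% (12.44 to 27.11), 25.2% (18.85 to 32.76) and 19.5% (17.83 to 21.35), against 26.2% of CpG-rich windows and 15.35% of all windows. The share of CpG-rich windows lies inside the GC box intervals of both specific classes. The letters TGACCA, the core bound by the human paralogue BCL11A, were present in 7.48% (3.84 to 14.1), 15.0% (10.1 to 21.6) and 10.8% (9.46 to 12.2), against 9.16% of CpG-rich windows and 12.5% of all windows, which both lie inside the Treg-specific interval. The AP-1 motif TGANTCA, the GATA motif AGATAA and the forkhead motif TGTTTAC were each in under 6% of windows of every class. In the same order they were in 6.99%, 9.65% and 3.00% of all windows, but in 3.45%, 4.31% and 2.20% of CpG-rich windows. These matches describe the windows, share bases with each other where motifs overlap, and were not tested.

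**Figure D2:**
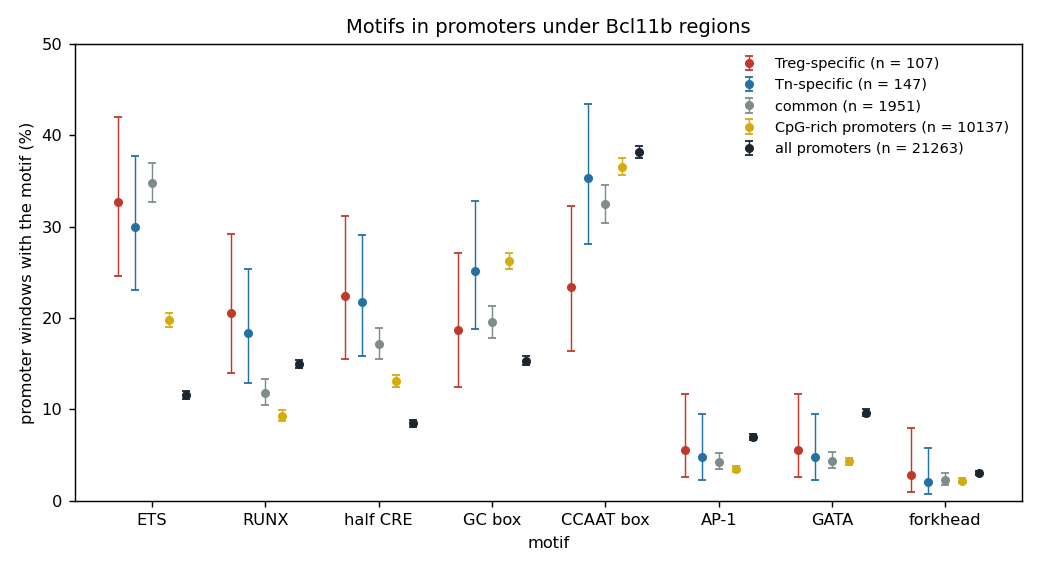
Share of promoter windows that hold each of 8 motifs (y axis, %; x axis, motif) for windows under Treg-specific, Tn-specific and common regions, for CpG-rich windows and for all windows, with Wilson 95% intervals. For ETS the 3 classes lie between 29.9% and 34.8%, above CpG-rich windows at 19.8% and all windows at 11.6%.

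Listing for Foxp3, taken as a region with identical coordinates in the Foxp3 lists, differed between the classes. A region was counted as listed for WT Foxp3 where the comparison of Bcl11b-KO and WT Treg cells placed it in the WT-specific or the common Foxp3 list. This held for 201 of 2025 Treg-specific regions (9.93%, 8.70 to 11.3), 204 of 725 Tn-specific regions (28.1%, 24.99 to 31.52) and 2516 of 4493 common regions (56.0%, 54.5 to 57.4). Against common regions the odds ratio was 0.0866 (0.0736 to 0.102) for Treg-specific regions and 0.308 (0.258 to 0.366) for Tn-specific regions, with adjusted p = 4.9e-301 and 1.6e-44 by Fisher's exact test. The class with the lowest share was thus the Treg-specific one, although Foxp3 was precipitated from Treg cells. The order was the same within 1 kb of a gene end, at 30.4%, 49.4% and 72.3%, and farther away, at 6.69%, 17.6% and 39.6%, for Treg-specific, Tn-specific and common regions. With WT Foxp3 taken from its comparison with Treg Bcl11b, the shares were 17.7% of Treg-specific, 27.03% of Tn-specific and 64.7% of common regions. With any WT Foxp3 region within 500 bp counted, the shares were 14.1%, 36.0% and 63.9% in the same order.

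The Foxp3 result moved almost completely with region width. Of regions with exactly 198 or 226 bp, 1 of 1786 Treg-specific, 1 of 480 Tn-specific and 8 of 1601 common regions were listed for WT Foxp3. Of regions with any other width, 200 of 239 Treg-specific (83.7%), 203 of 245 Tn-specific (82.9%) and 2508 of 2892 common regions (86.7%) were listed. Among these the odds ratio against common regions was 0.785 (0.545 to 1.16) for Treg-specific and 0.740 (0.519 to 1.08) for Tn-specific regions, with adjusted p = 0.4 and 0.26 by Fisher's exact test. Choosing regions by width nearly chooses them by their Foxp3 listing. This comparison therefore cannot decide whether the classes differ in that listing. All lists draw on 1 set of regions, and the labels do not say how the width of a region was set, so the 2 measures cannot be told apart.

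**Figure D3:**
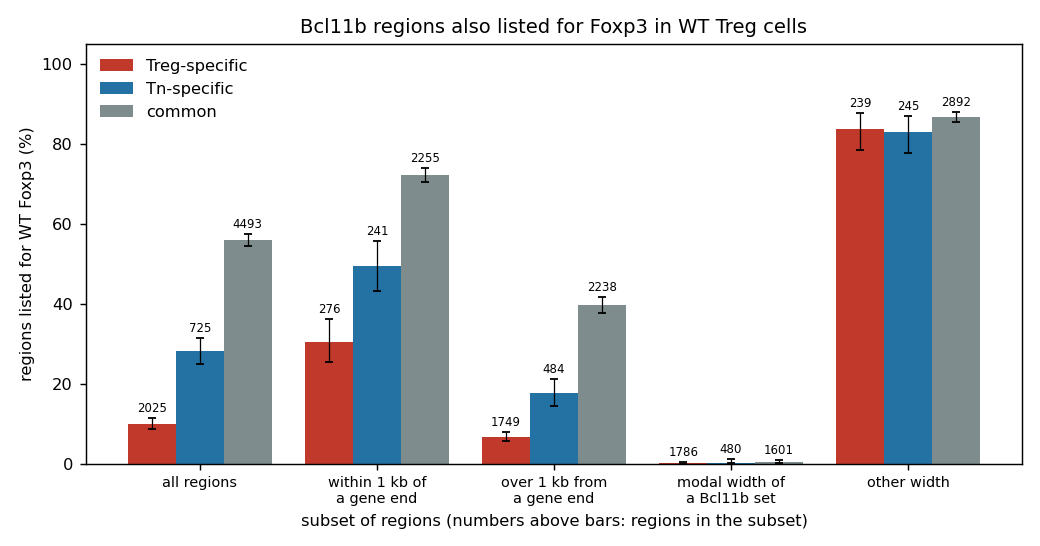
Share of Bcl11b regions also listed for WT Foxp3 (y axis, %) in all regions and in 4 subsets by position and by width (x axis), with Wilson 95% intervals and the number of regions above each bar. Over all regions the shares are 9.93% for Treg-specific, 28.1% for Tn-specific and 56.0% for common regions; at modal widths they are near 0, and at other widths they lie between 82.9% and 86.7%.

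Where WT Foxp3 was listed, it was also asked how often it was lost without Bcl11b. The region was WT-specific in the Foxp3 comparison in 47 of 201 Treg-specific cases (23.4%), 48 of 204 Tn-specific cases (23.5%) and 641 of 2516 common cases (25.5%). Lost is here a list call with no signal value behind it. The share over all WT Foxp3 regions is not given here, so these shares are read only against each other. The odds ratio against common regions was 0.893 (0.622 to 1.26) for Treg-specific and 0.900 (0.629 to 1.27) for Tn-specific regions, each with adjusted p = 0.62 by Fisher's exact test. The intervals leave room for a difference of moderate size in either direction.

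Assigned to the nearest protein-coding gene within 100 kb, the regions fell at 5671 genes. Of these, 1294 genes (22.8%) had Treg-specific regions alone, 450 genes (7.94%) Tn-specific regions alone and 3268 genes (57.6%) common regions alone. A further 429 genes combined Treg-specific and common regions, 139 combined Tn-specific and common regions, 60 had both specific classes and 31 had all 3. Of Treg-specific regions 13.3%, and of Tn-specific regions 14.3%, lay within 10 kb of a common region.

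Treg-specific regions stood at 1814 genes, of which 162 held 2 or more and 11 held 3 or more. Rbpj, which encodes the DNA-binding partner of the Notch receptors, held 4, at 21.1, 17.5 and 6.01 kb upstream and 14.2 kb downstream of its nearest starts, from chr5:53569128 to 53604740. All 4 regions lay inside the gene and were 198 bp wide, and Rbpj had no region of another class. Csf1, which encodes the macrophage growth factor M-CSF, held 3 within 7.96 kb, at 1.83 kb upstream and at 0.209 and 5.93 kb downstream of a start. Il2rb, which encodes the beta chain of the IL-2 receptor, held 2 inside the gene, at chr15:78493577-78493890 and chr15:78495112-78495437. They belonged to a run of 4 Treg-specific regions over 82.1 kb that also reached Tmprss6 and C1qtnf6. Actr10, a subunit of the dynactin complex, held 3 between 16.4 and 25.6 kb downstream of its start. Adora2a, an adenosine receptor that raises cyclic AMP, and Adam19, a membrane metalloprotease, held 2 each inside the gene. Skap2, an adaptor protein of integrin signalling, held a region of 595 bp at 0.114 kb upstream of its start, among the widest of its class.

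Genes of the cell cycle and the response to DNA damage held 11 Treg-specific, no Tn-specific and 15 common regions, at 15 of 32 listed genes. The Treg-specific share of these regions was 42.3%, beside 27.8% over all protein-coding genes. Counted by gene there was little difference: 5 of the 15 genes (33.3%) held a Treg-specific region, beside 32.0% of all genes with a region. Atr, the kinase that senses single-stranded DNA, held 3 Treg-specific regions, 1 of them 0.020 kb from its start, and a common one at 82.4 kb downstream. Cdkn1a, which encodes the kinase inhibitor p21, held 2 Treg-specific regions and a common one at 1.65 kb downstream. Rb1, the retinoblastoma protein, held 2 Treg-specific and 1 common region. Cdk6, a G1 kinase, and E2f3, a transcription factor of S phase entry, held 2 Treg-specific regions each. Ccnd2 and Cdkn1b, which encode cyclin D2 and p27, held 2 common regions each and no specific one.

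Tn-specific regions stood at 680 genes, of which 28 held 2 or more. Tbc1d5, a regulator of Rab7 in endosome transport, held 3, at 8.79 kb upstream and at 0.066 and 0.658 kb downstream of its nearest start, beside a common region. Fgf18, Fgf13 and Epha3 held 2 Tn-specific regions each and no other. The first 2 encode fibroblast growth factor family members and Epha3 an ephrin receptor. Over the list of guidance and growth factor genes this gave 8 Treg-specific, 9 Tn-specific and 5 common regions at 15 of 34 genes, where 40.9% of regions were Tn-specific beside 9.91% over all genes. By gene, 6 of the 15 (40.0%) held a Tn-specific region, beside 11.99% of all genes with a region. The autophagy and lysosome list held 4 Treg-specific, 6 Tn-specific and 5 common regions at 12 of 28 genes. Its regions were 26.7% Treg-specific, 40.0% Tn-specific and 33.3% common, beside 27.8%, 9.91% and 62.3% over all genes. A Tn-specific region stood at 6 of the 12 genes, beside 11.99% of all genes with a region. The Tn-specific regions of this list included those at Atg14, Wipi2, Tfeb, Hexa and Npc1. Wipi2 and Npc1 each held a Treg-specific region as well. Tfeb, the master regulator of lysosomal genes, had a common region 0.036 kb from its start and a Tn-specific region 1.80 kb downstream.

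Several regulators of T cells held regions of more than 1 class. Lef1, a partner of beta-catenin, held a Tn-specific region of 555 bp at 0.537 kb upstream of a start (chr3:131111977-131112531) and a Treg-specific region of 198 bp at 12.3 kb downstream (chr3:131124967-131125164). Both lay inside the gene. Klf2, which controls T cell trafficking, held a common region 0.021 kb from its start and a Tn-specific region 15.3 kb upstream, at chr8:72303488-72304029. Tcf7, which encodes TCF-1, held 3 common regions and a Tn-specific region 10.2 kb upstream of a start. Klf13 held 2 Tn-specific regions and 1 common region. Myb held 2 Treg-specific regions at 0.688 and 17.5 kb upstream, a Tn-specific region at 12.3 kb upstream and a common region 12.7 kb downstream. Pik3cd, the catalytic PI3K subunit of leukocytes, held 2 Treg-specific, 1 Tn-specific and 1 common region, all inside the gene. Zmiz1, a co-activator of Notch1, held 1 Treg-specific, 2 Tn-specific and 3 common regions, of which a common one lay 0.043 kb from a start.

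**Figure D4:**
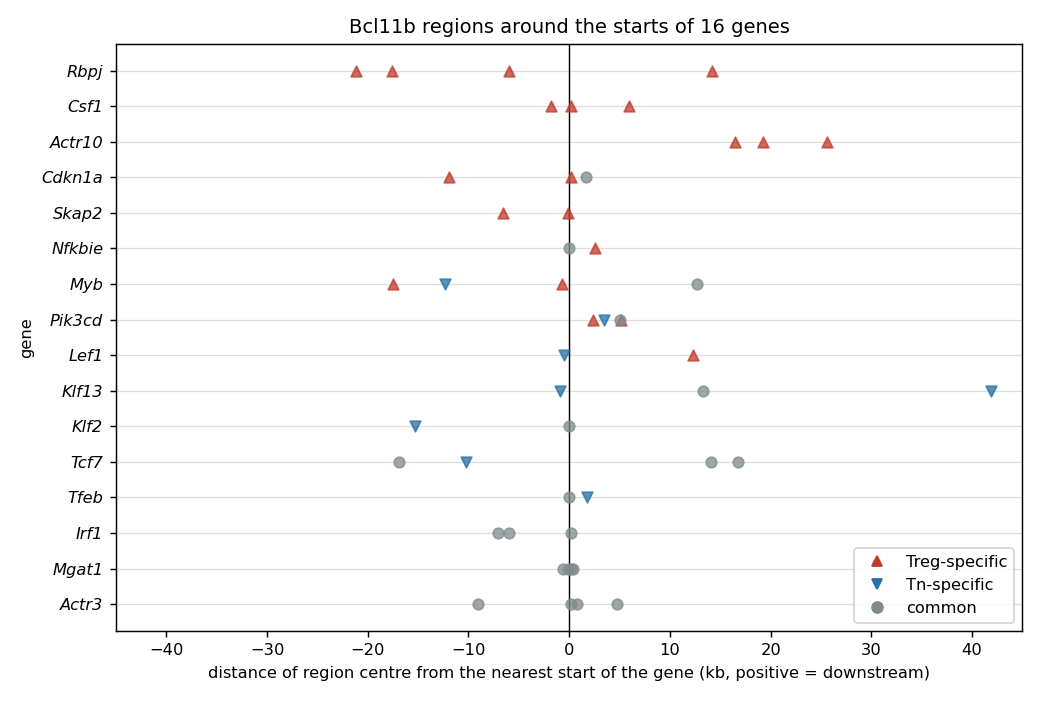
Position of each Bcl11b region (x axis, kb from the nearest start of the gene, positive downstream) at 16 genes (rows), chosen after their values were seen; triangles pointing up are Treg-specific, triangles pointing down Tn-specific and circles common regions. Rbpj, Csf1 and Actr10 carry Treg-specific regions alone, Lef1, Myb and Pik3cd carry both specific classes, and Irf1, Mgat1 and Actr3 carry common regions alone.

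Counted by region, common regions had their highest shares, among lists with over 20 regions, at genes of the cytoskeleton, chromatin, second messengers and mRNA decay. The list of actin and small GTPase genes held 2 Treg-specific, 2 Tn-specific and 24 common regions at 17 of 32 genes, 85.7% common beside 62.3% over all genes. By gene, 15 of the 17 (88.2%) held a common region, beside 68.2% of all genes with a region. The order changed by gene for the other 3 lists. The Polycomb, trithorax and SWI/SNF list stood at 93.3%, mRNA decay at 84.2% and second messengers at 81.8%. The cell cycle, ubiquitin and membrane traffic lists each stood at 86.7%. Actr3, a subunit of the Arp2/3 complex, held 4 common regions, and Actb, Dock2, Dock10, Rac2, Arhgef1 and Fmnl1 held 2 each. Rhoa, a small GTPase of the cytoskeleton, had no common region, with a Tn-specific region 0.112 kb from its start and a Treg-specific region 26.8 kb downstream. Genes of G protein, cyclic AMP and calcium signalling held 8 Treg-specific, no Tn-specific and 28 common regions (77.8% common), at 22 of 32 genes. There Gnas and Pde4d held 3 common regions each, and Adora2a only Treg-specific ones. Genes of mRNA decay and translation control held 7 Treg-specific, no Tn-specific and 22 common regions (75.9% common) at 19 of 32 genes. Cnot6l, a deadenylase subunit, held 2 Treg-specific regions. Genes of Polycomb, trithorax and SWI/SNF complexes held 4, 1 and 19 regions in the order Treg-specific, Tn-specific, common (79.2% common). Ezh2, Kdm6b and Dnmt3a held 2 common regions each.

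The remaining lists are set beside shares over all genes of 27.8% Treg-specific, 9.91% Tn-specific and 62.3% common regions. Ubiquitin ligases and deubiquitinases held 4 Treg-specific, 4 Tn-specific and 15 common regions (17.4%, 17.4% and 65.2%). For mTOR and metabolism the counts were 7, 5 and 14 (26.9%, 19.2% and 53.85%). For Klf factors and nuclear receptors they were 6, 3 and 17 (23.1%, 11.5% and 65.4%), and for membrane traffic and the nuclear pore 4, 2 and 16 (18.2%, 9.09% and 72.7%). Interferon and innate sensing genes held 6, 1 and 13 (30.0%, 5.0% and 65.0%), where Irf1 had 3 common regions and Irf4 and Irf8 a Treg-specific one each. Antigen presentation held 3, 0 and 4 (42.9%, 0.0% and 57.1%). Among genes of other tissues, such as keratins and crystallins, 5 of 30 held a region, beside 25.9% of all protein-coding genes. Of marker genes of other blood cells, 3 of 12 for B cells (25%), 2 of 12 for myeloid cells and 2 of 12 for CD8 T and NK cells (16.7% each) held a region, beside the same 25.9%. They held 0, 0 and 3, then 0, 0 and 3, and then 0, 1 and 1 regions. Binding says nothing of how many such cells were in a sort. The lists were not tested, and with 2 to 36 regions each a single gene can shift a share.

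**Figure D5:**
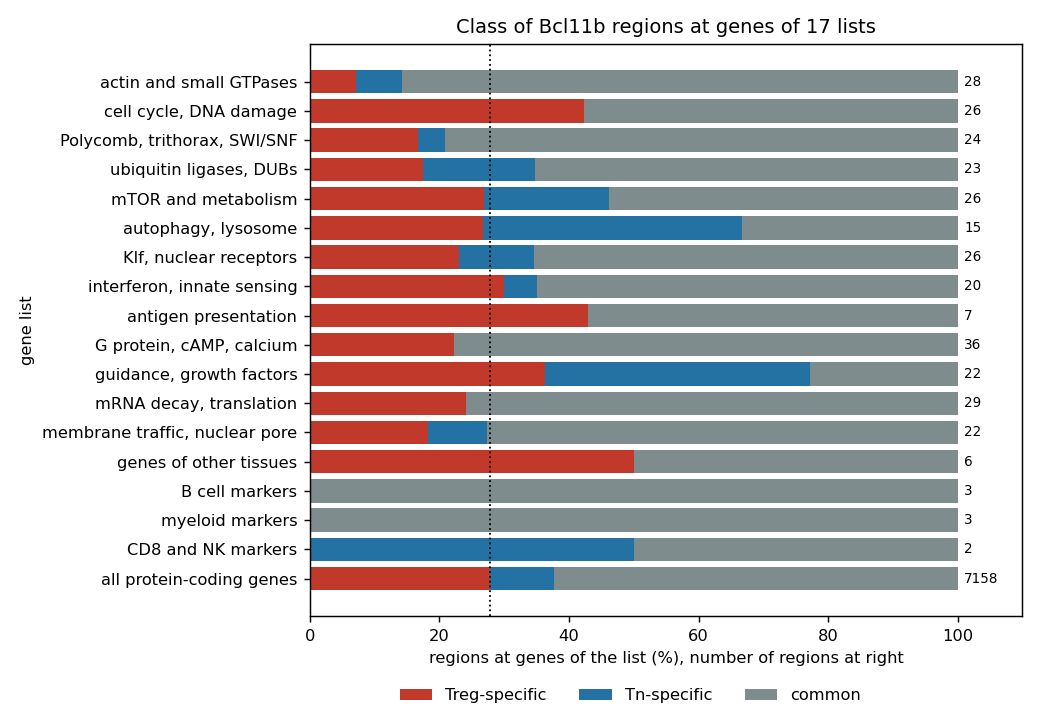
Share of regions of each class (x axis, %) at the genes of 17 lists and at all protein-coding genes (rows), with the number of regions at the right and a dotted line at the Treg-specific share over all genes, 27.8%. The cell cycle list lies at 42.3% Treg-specific with no Tn-specific region, and the actin list at 85.7% common.

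Chains of regions were also counted. With gaps under 50 kb, 462 of 2025 Treg-specific regions (22.8%), 66 of 725 Tn-specific regions (9.10%) and 2169 of 4493 common regions (48.3%) had a neighbour of their own class; a class with more regions has closer neighbours, so neither these shares nor the lengths of chains are compared between classes. The longest chains held 4 Treg-specific, 3 Tn-specific and 9 common regions. That of 9 ran over 243.5 kb of chromosome 19 from Banf1 to Kat5, and 1 of 7 common regions on chromosome 11 held Skp1, Tcf7 and Vdac1. At the other extreme, 37 Treg-specific (1.83%), 16 Tn-specific (2.21%) and 32 common regions (0.712%) had no protein-coding gene within 100 kb. The most remote was a common region 1.84 Mb from Pcdh7, and the most remote of the specific classes lay 1.59 Mb from Pabpc4l (Treg-specific) and 1.19 Mb from Kcnv1 (Tn-specific).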

How the data were processed

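The 12 lists that the authors deposited give chromosome, start and end of regions in mm10, with no header, score, signal, replicate value or other unit. The submitters' processing notes name HISAT2 2.1.0, HOMER 4.10.1, SAMtools 1.3, deepTools, cutadapt 1.12, Trim Galore 0.4.2 and FastQC, without roles. The peak threshold, the rule behind "common" and any pooling are not stated in the sources used here, and no list is named for Treg Bcl11b replicate 3. From the 7273 rows of the 3 lists, 22 repeats and 4 regions present in 2 lists were dropped.

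Genes came from RefSeq GRCm38.p6. Start sites and sequences came from its promoter table, which covers no gene of chromosome 18. Regions were matched between lists by identical chromosome, start and end. Promoter windows were matched to regions with an overlap of at least 1 bp. Tests were 8 two-sided Fisher's exact tests with exact 95% intervals, adjusted by Benjamini-Hochberg and checked on simulated data; other shares have Wilson 95% intervals. Members, the 17 gene lists and the tests were chosen with earlier results of these data known. Named genes are those with most regions per class, the widest, densest and most remote regions, leading list members and genes with all 3 classes; some genes that this rule names are not reported here. Python 3.11.15, pandas 2.3.3 and scipy 1.17.1 were used.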

Additional observations from a re-analysis of the deposited data

How the results depend on the processing

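Of 58 recomputed test results, 50 kept their direction and their side of the threshold. The gene-end odds ratios stayed below 1 under 7 of 7 alternatives, between 0.0916 and 0.357 for Treg-specific and between 0.289 and 0.701 for Tn-specific regions, and the loss of Foxp3 without Bcl11b passed the threshold under none of 7 (0.887 to 0.941 and 0.862 to 0.931). The Foxp3 odds ratios stayed below 1 and past the threshold under 8 of 9 (Treg-specific) and 7 of 9 (Tn-specific), but their size moved widely, between 0.0169 and 0.785 and between 0.0600 and 0.740; above 276 bp the Treg-specific value was 0.550. They no longer passed at other than modal widths (Treg-specific 0.785, adjusted p = 0.4; Tn-specific 0.740, adjusted p = 0.26, by Fisher's exact test), nor, for Tn-specific regions, above 276 bp (0.632, adjusted p = 0.09). Splits by width nearly choose regions by their Foxp3 listing, so they cannot decide whether the classes differ in it. The odds ratio of lying inside a gene turned to 1.08 (Treg-specific) and 1.19 (Tn-specific) above 276 bp and to 1.24 (Tn-specific) at other than modal widths. For Treg-specific regions it passed the threshold with every annotated gene (0.822, adjusted p = 0.013) and without common regions of modal width (0.835, adjusted p = 0.043), by Fisher's exact test. Above 276 bp the class shares were 6.97% Treg-specific, 7.08% Tn-specific and 86.0% common. The causes were not tested. The 2 alternatives on modal width were chosen after seeing the data. No paired analysis was possible because the lists are per group and hold no replicate value, and for the same reason no replicate could be left out.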

Other observations

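Chromosome X held few regions of the Treg-specific class. It carried 8 of 2025 Treg-specific regions (0.395%), 27 of 725 Tn-specific regions (3.72%) and 49 of 4493 common regions (1.09%), beside 4.41% of protein-coding genes. Of the Tn-specific ones, 22 were exactly 226 bp wide. This was noticed in the data and not tested.

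Hairpins of microRNAs lay within 1 kb of 9 Treg-specific, 4 Tn-specific and 27 common regions. Over all regions the classes made up 28%, 10% and 62% in the same order. The hairpin counts lay near these shares, so they set no class apart, and they were not tested. Common regions overlapped the hairpins Mirlet7i and Mir30a, and a Tn-specific region inside Zmiz1 overlapped Mir3075.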
